A study of Mus musculus with 2 samples.

Results

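Of the 2052 Lef1 peaks listed for wild-type CD4+ T cells, 437 (21.3%, 95% exact interval 19.5 to 23.1%) lay between genes but near one of them. They were chosen by position, into which width enters only where bases near a gene end are excluded. The peak had to be on chromosomes 1 to 19, its centre outside every protein-coding gene, none of its bases within 1 kb of a protein-coding gene's end, and its centre within 50 kb of the nearest protein-coding gene body. They made up 21.7% (19.9 to 23.5%) of the 2018 autosomal peaks. The other autosomal peaks were 432 with a base within 1 kb of a gene end, 784 elsewhere inside gene bodies and 365 farther than 50 kb from any protein-coding gene. Sites placed like these 437 are often considered as possible enhancers. Nothing measured here bears on enhancer activity, so they are called intergenic peaks.

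Lef1 binding was mapped by chromatin immunoprecipitation and sequencing (ChIP-seq), in which DNA bound to a protein is pulled down with an antibody and sequenced. The wild-type library came from spleen cells of C57BL/6 mice aged 8 to 10 weeks, sorted as conventional CD4+ T cells (TCRb+, CD4+, CD25-, and GFP- according to the design text). The library used as control came from Lef1-deficient CD4+ T cells (TCRb+, CD4+) of CD4-Cre+ Lef1 fl/fl C57BL/6 mice, with no age or organ stated in the labels used here. Both were precipitated with the same anti-Lef1 antibody, C18A7. In the deficient mice Cre is driven from the CD4 promoter, so a floxed Lef1 gene is removed during T cell development and the mature cells arise without it. Whether any cells escaped deletion was not measured here. The labels call the tissue of both libraries naive CD4 T cells, but no naive-cell marker stands among the gates, and the exclusion of CD25+ cells is given for the wild-type gate but not for the other. Each group has 1 library, so no value below carries a replicate error, and the depth of the libraries is unknown. A peak is an excess of wild-type reads over the deficient library, and its score is a p-value as −log10, given by the authors.

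Lef1 is a transcription factor of the TCF/LEF family, which binds DNA through an HMG box and bends it. In Wnt signalling these factors recruit β-catenin to activate their targets, and without β-catenin they can recruit Groucho-family corepressors. In T cells, Lef1 and its relative Tcf1, the product of Tcf7, are needed for early thymocyte development and CD4 lineage choice and stay high in resting naive cells. TCF/LEF factors often act from enhancers, stretches of DNA away from the promoter that can act on a gene over long distances, and not always on the nearest gene.

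Where an intergenic peak fell on a promoter window of a long noncoding RNA (lncRNA), its sequence could be read. RefSeq promoter windows (GRCm38.p6, the assembly of mm10) run from 250 bases before to 50 bases after a start. Of the 437 peaks, 10 touched windows of 10 lncRNAs, and 3 are printed because their stretches of peak sequence, of 123 bases or more, are the longest among those shown in the tables used. Each is given 5′ to 3′ on the strand of the lncRNA and holds only the bases inside the peak. Capitals mark TCF/LEF words, searched on both strands. One such word is CTTTGAA, another that was sought is CTTTGAT, a further spelling was CTTTGTA, and the last of 7 letters was CTTTGTT. The shorter form CTTTGA was sought as well and overlaps the first pair.
Gm41168: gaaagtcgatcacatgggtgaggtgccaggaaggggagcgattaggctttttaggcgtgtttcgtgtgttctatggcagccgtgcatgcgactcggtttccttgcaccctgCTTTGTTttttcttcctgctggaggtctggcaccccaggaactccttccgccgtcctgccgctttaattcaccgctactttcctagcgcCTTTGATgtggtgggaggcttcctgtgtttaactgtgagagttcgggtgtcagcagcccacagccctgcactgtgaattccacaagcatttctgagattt
Gm39821: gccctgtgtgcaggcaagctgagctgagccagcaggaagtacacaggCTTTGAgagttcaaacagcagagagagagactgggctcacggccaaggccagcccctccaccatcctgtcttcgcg
Gm5547: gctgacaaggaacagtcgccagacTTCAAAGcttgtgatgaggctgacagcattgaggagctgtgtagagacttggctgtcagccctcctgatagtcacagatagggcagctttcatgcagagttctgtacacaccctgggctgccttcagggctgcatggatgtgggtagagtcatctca

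The Gm41168 stretch (chr14:61056512-61056811, plus strand) lay wholly inside a peak of 438 bp with a score of 6.82. Counting the start site as 0, CTTTGTT began at position -139 and CTTTGAT at -50. The peak stood 9.86 kb from the 5′ end of Tnfrsf19, a receptor of the tumour necrosis factor family listed here among Wnt targets. The Gm39821 stretch (chr11:51883848-51883970, plus strand; score 6.91) held CTTTGA at -134 and the ETS word AGGAAGT. This peak lay between Jade2 (24.9 kb) and Cdkn2aipnl (83.7 kb). In the Gm5547 stretch (chr3:105815317-105815497, plus strand; score 4.08), between Rap1a (14 kb) and Tmigd3 (55.5 kb), TTCAAAG at -226 is CTTTGAA on the other strand.

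Counted over whole windows, 4 of the 10 lncRNAs had a word of 7 letters, and in 2 of them, Gm41168 and Gm5547, a word touched the peak. Such a word is present in 20.9% of all 11311 autosomal lncRNA windows and in 16.8% of all 31396 autosomal windows. CTTTGA was present at 4 of the 10 lncRNAs, against 18.9% of the lncRNA windows. With 10 lncRNAs these shares are descriptions. A further 6 overlaps ran from 4 to 65 bases, at Gm15564, Gm39080, 4921513I03Rik, Crnde, Gm30234 and Gm29952. Crnde, a lncRNA next to the Irx genes, had 56 bases of its window under a peak of score 4.40.

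Scores of the intergenic peaks ran from 4.04 to 20.87. The median was 4.40, which was also the median of the whole list. At exactly that score stood 177 peaks (40.5%), with 142 (32.5%) above it and 118 (27%) below. A score of 8 or more was reached by 19 (4.35%, 2.64 to 6.71%). Widths ran from 55 to 637 bp with a median of 76 bp, and the peaks covered 47994 bp in all. Most were therefore narrow and close to the threshold of the list, with a small group well above it.

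The intergenic peaks were more often wide than peaks far from genes and less often wide than peaks at gene ends. They were also more often above the list's median score than far peaks, many of which stood exactly at it. Above the list's median score were 32.5% of them and 29.7% of all other autosomal peaks, a difference of 2.77 percentage points (95% interval -2.04 to 7.8; two-sided Fisher's exact test over peaks, adjusted p = 0.36). Wider than the list's median of 79 bp were 46.9% against 49.4%, a difference of -2.49 points (-7.73 to 2.8; Fisher's exact test, adjusted p = 0.36). Neither passed the test. Set against single classes of position, 6 comparisons in all, 3 passed. Peaks farther than 50 kb were above the median score in 20.8% of cases, 11.7 points less often (5.53 to 17.6; Fisher's exact test, adjusted p = 0.0014). Far peaks stood at exactly 4.40 in 64.4% of cases (59.2 to 69.3%), against 40.5% of intergenic ones (35.9 to 45.3%). They were below 4.40 in 14.8% of cases, against 27%, and at 8 or more in 5.21% (3.16 to 8.01%), against 4.35% (2.64 to 6.71%). The score comparison is thus one of how many peaks were tied at the median, and does not show far peaks to score lower in general. Far peaks were also less often wide (37%, a difference of 9.92 points, 3.06 to 16.6; Fisher's exact test, adjusted p = 0.01). Among intergenic peaks the median width was 69 bp at 4.40 and 70.5 bp below it, against 94 to 208 bp in the steps above it. The part of the ties at 4.40 in the width difference from far peaks was not tested. When peaks beyond 20 kb counted as far, this width difference was 8.31 points and did not pass Fisher's exact test (adjusted p = 0.056). Peaks at gene ends were more often wide (57.9%), so that the intergenic peaks lay 11 points below them (-17.5 to -4.32, Fisher's exact test, adjusted p = 0.0042). A wider peak is more likely to have a base within 1 kb of a gene end, so width is not independent of that class. This also bears on the width comparison with all other peaks, and its part was not tested. The share above the median score at gene ends, 37%, and both shares of the gene-body peaks, 29.8% for score and 50.5% for width, did not differ from the intergenic ones beyond the test's threshold (Fisher's exact test, adjusted p from 0.26 to 0.37). Gene-end peaks stood at exactly 4.40 in 21.5% of cases (17.7 to 25.7%), against 40.5% of intergenic ones. Below 4.40 were 41.4% of gene-end peaks, against 27% of intergenic ones. The shares at and below 4.40 were not tested. When all annotated genes, and not only protein-coding ones, set the classes, the score difference from all other peaks was -4.07 points (Fisher's exact test, adjusted p = 0.098) and the width difference passed at -7.61 points (Fisher's exact test, adjusted p = 0.0077). Tests over peaks treat neighbours as independent, which makes their p-values too small, and they compare positions within this pair of libraries.

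**Figure D1:**
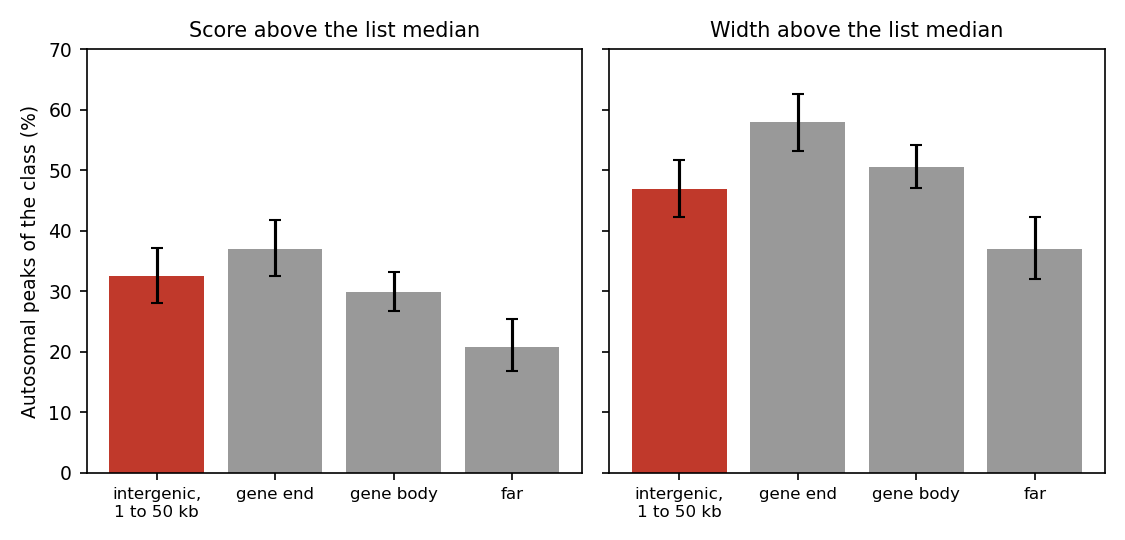
Bars give the percentage of autosomal peaks above the list's median score (left) and above its median width (right) in each class of position, with 95% exact binomial intervals for counting error. Intergenic peaks (red, 437) stand at 32.5% and 46.9%, above the 365 far peaks at 20.8% and 37%.

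The density of peaks showed no trend over the distances that the rule allows. Nearest genes lay 1.09 to 49.3 kb away, with a median of 14.6 kb and quartiles of 6.27 and 26.8 kb. Autosomal sequence at 1 to 50 kb from a gene amounts to 548 Mb, so that there were 0.798 peaks per Mb (95% exact Poisson interval 0.724 to 0.876). The density was 0.765 per Mb at 1 to 5 kb, 0.901 at 5 to 10 kb, 0.75 at 10 to 20 kb, 0.812 at 20 to 30 kb, 0.831 at 30 to 40 kb and 0.727 at 40 to 50 kb. The intervals of these 6 bins overlap, and no slope with distance can be read from them. From 50 to 100 kb, outside the rule, the density was 0.623 (0.514 to 0.749). The share above the median score ran from 23.3% at 20 to 30 kb to 38.3% at 1 to 5 kb, with overlapping intervals (14.2 to 34.6% and 27.7 to 49.7%).

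Densities facing the 2 ends of the nearest gene did not differ beyond counting error. The 5′ end, where transcription starts, faced 198 peaks (0.844 per Mb of sequence facing such ends), and the 3′ end faced 162 (0.822 per Mb). The ratio of the densities was 1.03 (95% interval 0.83 to 1.27, counting error only), and 77 peaks could not be placed because their nearest gene had no entry in the promoter table. Of the 19 peaks of score 8 or more, 7 faced a 5′ end, 11 a 3′ end and 1 a gene with no entry. For 304 peaks the strands of both flanking genes were known. Between divergent genes, whose 5′ ends both face the gap, there were 98 peaks (0.994 per Mb, 0.807 to 1.21). Between convergent genes there were 48 (0.739 per Mb, 0.545 to 0.979), and between genes that point the same way 158 (0.772 per Mb, 0.656 to 0.902). The 3 intervals overlap. Divergent gaps held 32.2% of the 304 peaks (27 to 37.8%) and 26.8% of the sequence, which lies just below that interval. Convergent gaps held 15.8% of the peaks (11.9 to 20.4%) and 17.7% of the sequence. Same-way gaps held 52% (46.2 to 57.7%) and 55.6%. These shares were not tested.

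**Figure D2:**
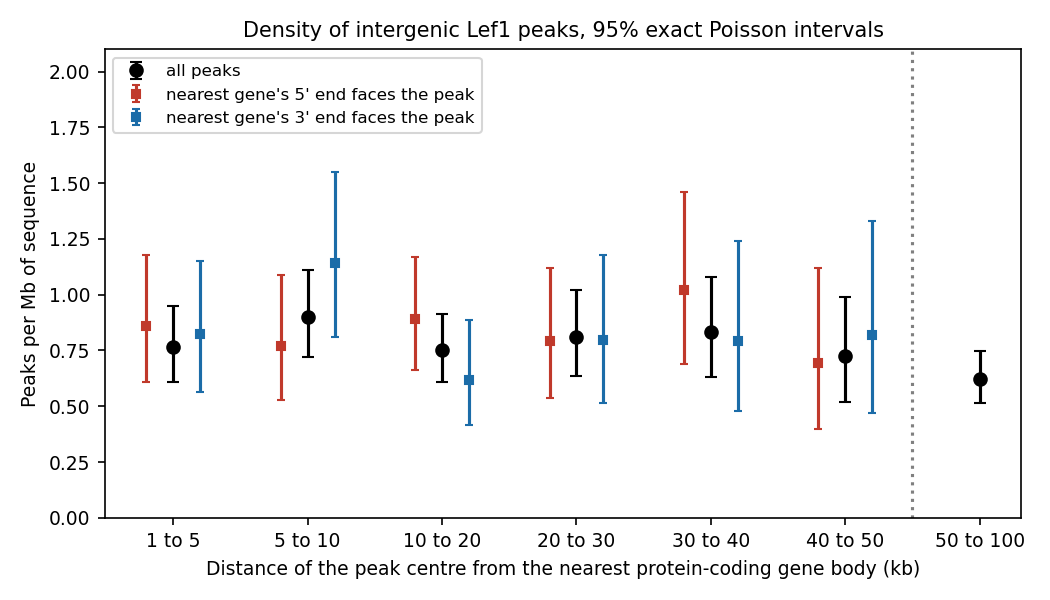
Points give Lef1 peaks per Mb of autosomal sequence (vertical axis) by distance from the nearest protein-coding gene body in kb, with 95% exact Poisson intervals; black circles are all peaks, and squares split them by the end of the nearest gene that faces the peak. Densities of all peaks run from 0.727 to 0.901 up to 50 kb and stand at 0.623 beyond the dotted line.

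Peaks lay more densely inside lncRNAs than in the rest of this intergenic sequence. The centre of 83 peaks (19%, 15.4 to 23%) fell inside an annotated lncRNA, although lncRNAs cover 12.7% of the sequence at 1 to 50 kb. The density was 1.2 per Mb inside (0.952 to 1.48) and 0.74 outside (0.665 to 0.821), and the 2 intervals do not overlap. They treat peaks as independent, although some lncRNAs, such as Gm1604a and Gm46785, held several, and neighbours were not merged for this count. Of the 83, 34 (41%, 30.3 to 52.3%) were above the median score, against 108 of the 354 outside lncRNAs (30.5%, 25.8 to 35.6%). These intervals overlap. A peak of score 6.53 lay inside Neat1, the lncRNA that builds nuclear paraspeckles, with Frmd8 at 6.01 kb. It was singled out after its value was seen. Transfer RNA genes held 3 centres, pseudogenes 6 and transcribed pseudogenes 2, and none fell in a gene for a miRNA, snoRNA or snRNA. The share of the sequence that these genes cover is not given, so these are counts only.

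Most gaps between genes held a single intergenic peak. Both flanking genes existed for 433 peaks, in gaps of 2.79 to 3214 kb with a median of 80.1 kb. The farther of the flanking genes lay at a median of 57.3 kb. Both flanks were within 50 kb for 189 peaks (43.2%) and within 20 kb for 71, while 29 had a flank at over 500 kb. Of 396 gaps with a peak, 362 held 1, 29 held 2, 3 held 3 and 2 held 4. A second listed peak stood within 1 kb of 40 of the intergenic peaks, and joining neighbours within 1 kb left 415. Per Mb of the span of a chromosome's protein-coding genes, peaks ranged from 0.115 on chromosome 14 (0.0629 to 0.193) to 0.283 on chromosome 17 (0.185 to 0.415). With 6.99 and 11.4 protein-coding genes per Mb, these chromosomes also differ in gene content.

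Just inside the 1 kb margin stood peaks 1061 bp from an end of Bub1b (score 7) and 1065 bp from an end of Gpr31b (4.09). Just outside it stood a peak 956 bp from Ptpn2 (4.11). Just inside 50 kb were peaks at 49.3 kb from Ppp2r5a (5.09) and 49.2 kb from Trib2 (4.40). Just outside were those at 50.3 kb from Prr16 and 50.4 kb from Pkhd1, both at 4.40.

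The 15 highest-scoring intergenic peaks sat beside a mixed set of genes. First came a peak of score 20.87 and 123 bp on chromosome 9, 15 kb from the 3′ end of Dpy19l2 and 38.9 kb from the 5′ end of Dpy19l1. Both genes encode C-mannosyltransferase-family proteins. The second (16.36, 208 bp) lay 46.1 kb from the 5′ end of Satb1, a chromatin organiser needed for T cell development. Its other flank, the potassium channel gene Kcnh8, was 723 kb away. The third (12.45, 221 bp) lay in the shortest gap of all, 2.79 kb, between the facing 5′ ends of Dgka (1.3 kb) and Pym1 (1.5 kb). Dgka encodes a kinase that removes diacylglycerol and so dampens T cell receptor signalling, and Pym1 acts on the exon junction complex.

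A pair of peaks tied at 11.09. One, 495 bp wide, lay 48.7 kb from Skor1, a corepressor gene, and 109 kb from Pias1, which encodes a SUMO ligase. The other lay 28.3 kb from Dyrk2, a kinase gene and, on its other side, 381 kb from Ifng, the gene of the T helper cytokine interferon gamma. Next were peaks between the esterase gene Aadac (5.07 kb) and the succinate receptor gene Sucnr1 (36.6 kb) at 10.91, between Gm5174 (14.3 kb) and Hsp90b1, an endoplasmic reticulum chaperone gene (5.51 kb), at 10.25, and between the importin gene Kpna4 (50.6 kb) and Arl14 (44.7 kb) at 10.22. A peak of 9.78 lay between Tmco1, a gene for a calcium channel of the endoplasmic reticulum (6.35 kb), and the dehydrogenase gene Aldh9a1 (9.64 kb). One of 9.65 lay inside the lncRNA 4732490B19Rik, 38.6 kb from the zinc transporter gene Slc39a11 and 419 kb from Sox9, an HMG-box factor gene of cartilage and testis. One of 9.08 lay between the genes of the bicarbonate transporter Slc4a8 (21.5 kb) and the sodium channel Scn8a (24.4 kb).

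Cytokine receptor genes flanked the next pair. A peak of 8.74 lay in the 23.8 kb gap between Il4ra, the interleukin-4 receptor alpha chain (9.4 kb from its 3′ end), and Il21r, the interleukin-21 receptor (14.4 kb from its 5′ end). One of 8.72 lay 36.4 kb from the 5′ end of Il6st, which encodes gp130, a receptor chain common to interleukin-6 and related cytokines, with Ankrd55 at 43.6 kb. One of 8.14 lay 1.12 kb from Gm10710 and 51.9 kb from Plrg1, and one of 8.13 lay 1.52 kb from Kpna1 and 9.15 kb from Parp9. Of the 15, then, some sat beside genes of T cell regulation and others beside genes with no listed T cell role.

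**Figure D3:**
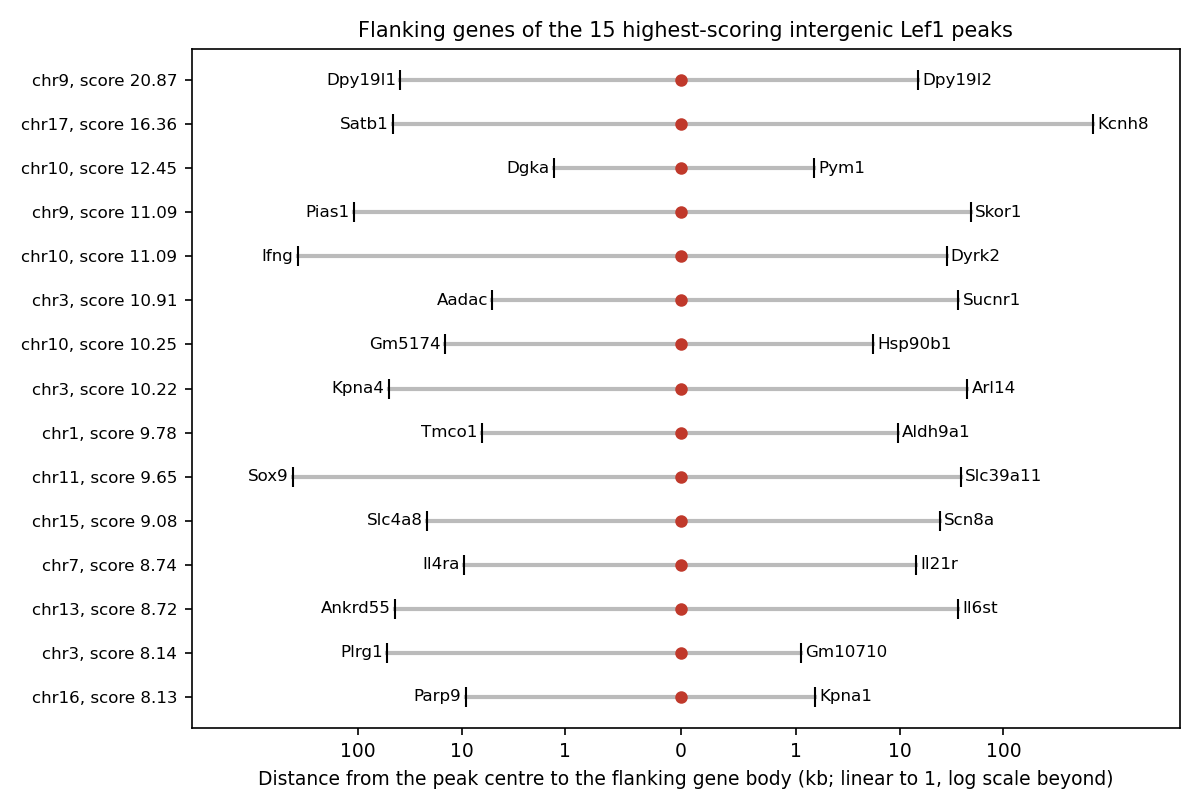
Each row is an intergenic peak (red point at 0), highest score at the top; ticks mark the near ends of the left and right flanking gene bodies, with distance in kb on an axis that is linear to 1 kb and logarithmic beyond. Distances run from 1.12 kb (Gm10710) to 723 kb (Kcnh8).

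Groups of intergenic peaks in a single gap were few. In the gap of 80.1 kb between Ankrd55 and Il6st, 4 peaks fell within 3.06 kb, with scores of 6.92, 4.31, 8.72 and 4.20 along the chromosome. Between Fndc1 and Tagap, a GTPase-activating protein gene induced by T cell activation, 4 peaks spread over 37.7 kb with scores of 5.16, 8.01, 4.83 and 5.63. Of these, 3 lay 13.3 to 15 kb from the 5′ end of Tagap. The gap between Pdk1, a kinase gene of glucose metabolism, and Rapgef4, a Rap exchange factor gene, held 3 peaks in 0.46 kb (4.83, 4.08 and 4.99). The gap between Cyb5a and Fbxo15 also held 3 (all 4.40, over 7.8 kb). Peaks that stand within 1 kb of each other may belong to the same site.

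The widest intergenic peak, 637 bp with a score of 6.68, lay 31 kb from the 5′ end of Tcf7 and 46.5 kb from Vdac1, inside the lncRNA Gm30217. A second peak stood 26.2 kb from the same end (4.08). The next widest were between the calpain genes Capn2 and Capn8 (544 bp, 8.00), the peak of 495 bp between Pias1 and Skor1, one 2.43 kb from Map10 and 97.5 kb from Sipa1l2 (452 bp, 4.33), and one 38.3 kb from the thiamine transporter gene Slc19a3 and 73.2 kb from Agfg1 (442 bp, 4.99). The peak with the highest score, at 123 bp, was not among them, although the median width was 208 bp at scores of 8 or more and 69 bp at 4.40.

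Among the gene lists, that of resting T cells had the highest share of genes beside an intergenic peak. Over all 20558 autosomal protein-coding genes, 775 (3.77%) flanked an intergenic peak at any distance and 567 (2.76%) within 50 kb. Here and below, a gene was counted only as the nearest coding gene on either side of a peak. Genes lying behind another coding gene were not counted, however near. Of 28 genes typical of naive and quiescent T cells, 11 flanked an intergenic peak within 50 kb (39.3%, 21.5 to 59.4%). Of 178 genes in 8 lists on T cells and Wnt signalling, each counted once, 29 did (16.3%, 11.2 to 22.6%), and 36 (20.2%) at any distance. Where all annotated genes could be the flanking gene, the count within 50 kb was 18. Of 129 genes in 7 lists of other cell types and housekeeping genes, 4 did (3.1%, 0.851 to 7.75%), and 6 (4.65%) at any distance. Since the lists were written with results of these data known, these counts are descriptions and have no test. Genes that flanked an intergenic peak within 50 kb were also longer (median 26.3 kb) than all genes (17.6 kb). The part of gene length in the counts was not tested.

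**Figure D4:**
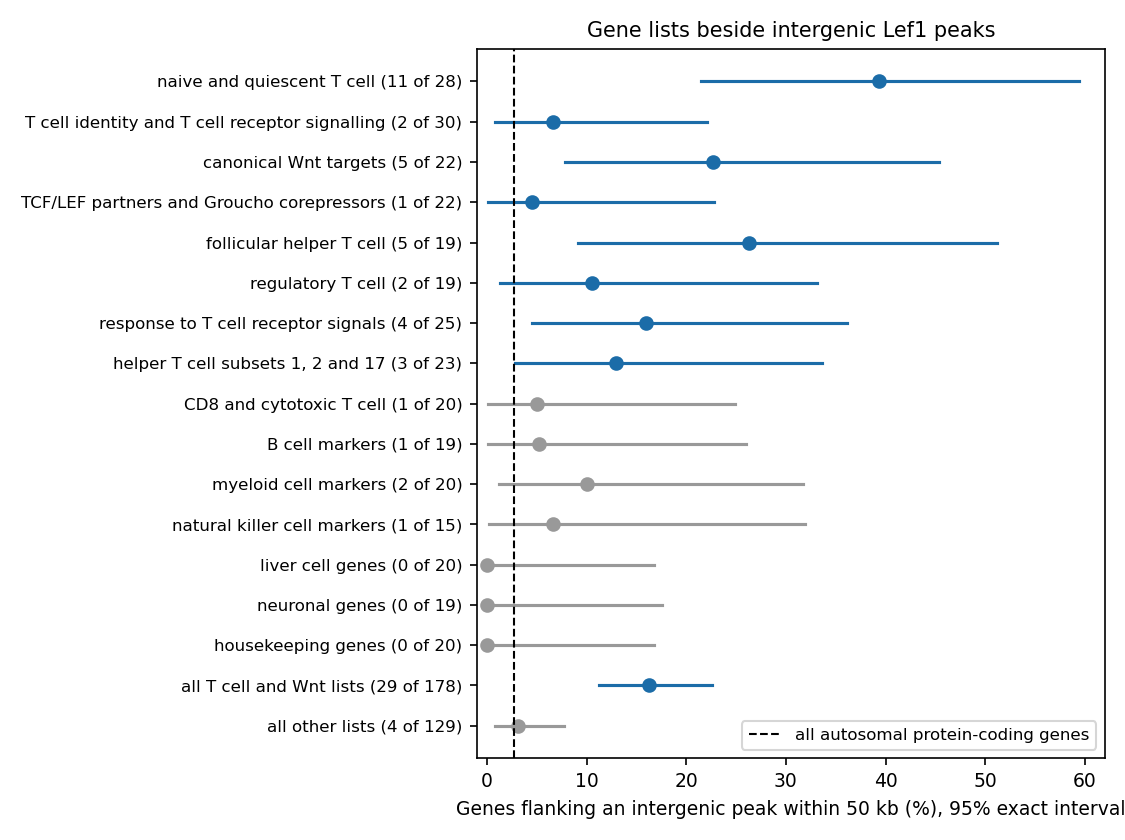
Points give the percentage of each list's genes that flank an intergenic peak within 50 kb, with 95% exact binomial intervals; T cell and Wnt lists are blue and other lists grey, and the counts stand beside the names. The naive and quiescent list is highest at 39.3%, and the dashed line marks the 2.76% of all autosomal protein-coding genes.

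Among the naive and quiescent genes, the transcription factor genes Satb1 (16.36), Lef1 (7.65), Tcf7 (6.68), Klf2 (4.99) and Ets1 (4.83) had peaks within 50 kb, each given with its highest score. Satb1 had a second peak at 47.4 kb (4.25), 1105 bp from the first. The Lef1 peak was 373 bp wide and lay 4.26 kb from the gene's 5′ end, inside the lncRNA Gm36603. The control cells carry the floxed and deleted Lef1 gene, and the extent of that deletion was not used here, so at this locus the effect of the deletion on the peak call was not tested. Klf2, which keeps T cells quiescent and in circulation, had its peak at 39.7 kb, nearer to Ap1m1 (22 kb). The Ets1 peak, at 44.1 kb, shared its gap with another gene of the ETS family, Fli1, at 48.8 kb. Homing and cytokine receptor genes followed, with Ccr7, which guides naive cells into lymph nodes, at 28.2 kb (5.37) and 22.2 kb (4.83) and Il6ra at 5.03 kb (4.99). Dgka (12.45), Dapl1 (5.68), Slfn2 (5.44), a Schlafen gene of quiescence, and Actn1 (4.06) completed the 11. Klf3 was a flank at 51.2 kb.

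Canonical Wnt targets had 5 of 22 within 50 kb (22.7%, 7.82 to 45.4%). Beside Lef1 and Tcf7 these were Cd44, the hyaluronan receptor gene (6.91, at 6.91 kb), Tnfrsf19 (6.82) and Dkk1, which encodes a secreted Wnt inhibitor (peaks at 5.07 and 38.6 kb, both 4.40). Of 22 TCF/LEF partners and Groucho corepressors there was 1 (4.55%, 0.115 to 22.8%), Ctnnb1, the β-catenin gene, at 37.2 kb (4.25). That interval includes the 2.76% of all genes.

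Follicular helper T cell genes had 5 of 19 (26.3%, 9.15 to 51.2%), most of them cytokine signalling genes. The peak near Il21 (6.84) lay 17.4 kb from its 3′ end, with Il2 as the other flank at 79.4 kb. Both genes encode cytokines of activated T cells. Pdcd1, which encodes the inhibitory receptor PD-1, had a peak 2.74 kb from its 3′ end (5.41). Il21r, Il6st and Il6ra were the others. Of 23 genes of helper subsets 1, 2 and 17, 3 were counted (13%, 2.78 to 33.6%), with a lower bound just above the 2.76% of all genes. They included Il4ra and Stat4, a transducer of interleukin-12 signals, with a peak at 6.7 kb (4.99).

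Genes that respond to T cell receptor signals had 4 of 25 (16%, 4.54 to 36.1%), namely Dgka, Tagap, the transcription factor gene Egr3 (5.68, at 11.4 kb) and Cblb, which encodes a ubiquitin ligase that limits activation (5.63, at 24.1 kb). Regulatory T cell genes had 2 of 19 (10.5%, 1.3 to 33.1%), Gpr83 and Izumo1r, which share a gap with a peak of 4.40 (1.24 and 13.8 kb). Izumo1r, the folate receptor 4 gene, had further peaks at 4.26 kb (4.83) and 22.8 kb (4.40) on its other side. T cell identity genes had 2 of 30 (6.67%, 0.818 to 22.1%). These were Lck, the kinase gene of receptor signalling, at 1.77 kb (4.67) and the costimulatory receptor gene Cd28 at 3.75 kb (4.08). The intervals of this list and of the regulatory T cell list include the 2.76% of all genes. A listed peak inside the gene or within 1 kb of its ends was present at 9 of the 30 identity genes (30%), against 5.66% of all genes. The peak near Cd28 had Ctla4, its inhibitory counterpart, as the other flank at 132 kb. Tnfaip3, Bcl11b and Runx1 were flanks only at 306, 787 and 746 kb.

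In the lists of other cells, Fasl, a cytotoxic ligand gene, had a peak at 16.1 kb (4.99), the Fc receptor gene Fcgr3 at 6.18 kb (4.40) and Ly6c2 at 4.64 kb (7.18). Of the 20 liver, 19 neuronal and 20 housekeeping genes none flanked an intergenic peak within 50 kb. The upper bounds of these shares were 16.8%, 17.6% and 16.8%, so the intervals include the 2.76% of all genes. A listed peak inside the gene or within 1 kb of its ends was present at 2 of the housekeeping and 1 of the neuronal genes. The neuronal gene Gad2 was a flank at 51 kb (7.90).

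The intergenic peaks flanked by a T cell or Wnt list gene within 50 kb had higher scores than the others. There were 37 of them, of which 26 (70.3%, 53 to 84.1%) were above the list's median score, against 116 of the remaining 400 (29%, 24.6 to 33.7%). Their median score was 4.99 against 4.40. Read by score, such a gene was present for 7 of 118 peaks below the median (5.93%), 4 of 177 at it (2.26%), 15 of 88 above it and under 6 (17%), 6 of 35 from 6 to under 8 (17.1%) and 5 of 19 at 8 or more (26.3%). Along the same steps the median width was 70.5, 69, 94, 129 and 208 bp. The share thus differed mainly between peaks above 4.40 and those at or below it. As the lists are not independent of these data, this has no test.

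**Figure D5:**
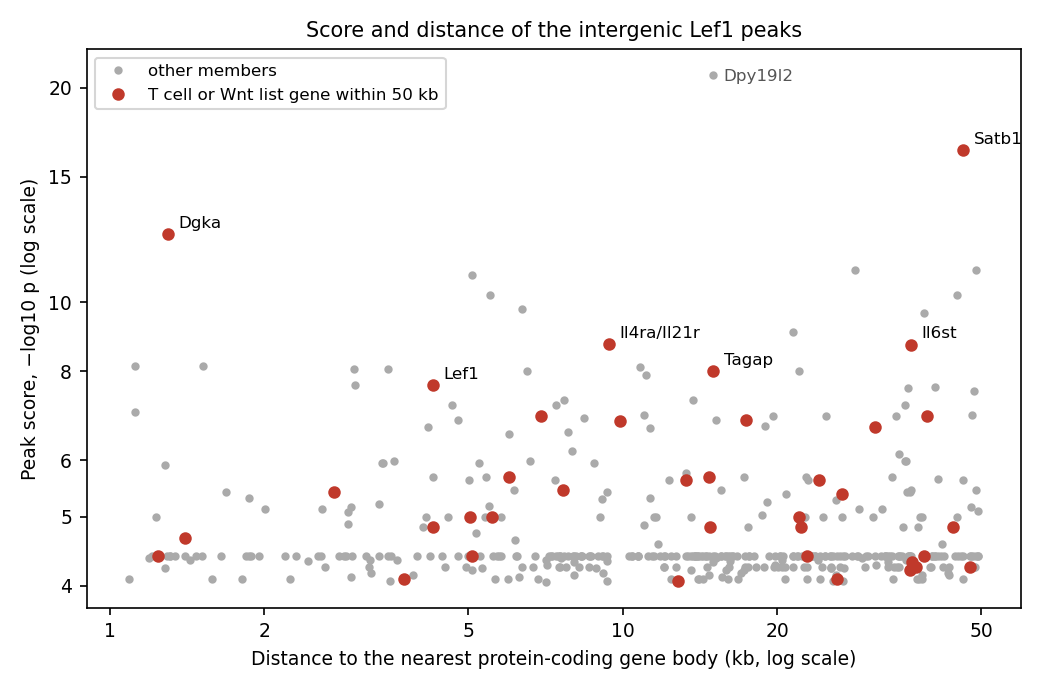
Each point is an intergenic peak. Its distance to the nearest protein-coding gene body in kb is horizontal and its score in −log10 p vertical, both on log scales. Red points have a T cell or Wnt list gene as a flank within 50 kb. Red points are 37 of 437 and include 5 of the 19 at a score of 8 or more; the dense line of points is the score 4.40.

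Genes that flanked an intergenic peak also held other listed peaks in a slightly higher share than all genes. A peak inside the gene or within 1 kb of its ends was present at 1164 of the 20558 autosomal protein-coding genes (5.66%). It was present at 45 of the 567 genes that flanked an intergenic peak within 50 kb (7.94%, 5.85 to 10.5%). Among the 404 nearest genes it was present at 36 (8.91%, 6.32 to 12.1%). The lower bounds of both intervals are above 5.66%, and the greater length of these genes, given above, moves with the count. Its part was not tested. Tmem267 and the sphingomyelin synthase gene Sgms1 had the most, with 3 other peaks each, followed by Fli1, Tcf7 and Cblb among those with 2. Of the 29 T cell and Wnt genes that flanked an intergenic peak within 50 kb, 6 also had a peak inside or at their ends. Of all 178 such genes 35 (19.7%) did.

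Genes that are neither protein-coding nor lncRNAs stood near some peaks, chosen here after their values were seen. A peak of 371 bp and score 6.17 (chr14:54227336-54227706) lay 3.32 kb from Trac, the constant segment of the T cell receptor alpha chain (54220521 to 54224198), and 7.96 kb from the 3′ end of Dad1. The stretch between Trac and Dad1 is where the T cell receptor alpha enhancer lies, an element long known to bind TCF/LEF factors. As Trac is not counted as protein-coding in the gene table, the left flank by the rule was Gm36448 at 1686 kb. A peak of 4.64 (chr11:87749700-87749854), between Supt4a (6.15 kb) and Tspoap1 (8.42 kb), lay 7.09 kb from Mir142, the gene of a miRNA abundant in blood cells. The mature forms from this locus are shown 5′ to 3′, with the seed, bases 2 to 8, in capitals.
mmu-miR-142a-5p: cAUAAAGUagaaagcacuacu
mmu-miR-142a-3p: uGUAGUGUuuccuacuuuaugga

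Within 10 kb of a miRNA gene there were 2 further peaks, a count with no background share beside it. One of 5.75 lay 6.2 kb from Mir6367, between the interferon receptor genes Ifnar1 (23.2 kb) and Ifngr2 (13.3 kb). The other, of 4.40, lay 8.32 kb from Mir1928, between the chemokine receptor gene Cxcr1 (3.53 kb) and Arpc2 (38.3 kb).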

How the data were processed

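Lef1 ChIP-seq was done on 1 wild-type and 1 Lef1-deficient library, per the labels. The authors deposited 1 list of 2052 peaks called against the deficient library, with peak scores as −log10 p-values per the file header, not adjusted. FastQC, Bowtie2 2.3.4.1, MACS2 2.1.1 and mm10 are named in the submitters' processing notes, without parameters. Peak numbers run from 26 to 33876, so other calls carried numbers that the list leaves out.

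Starts were read as BED starts and raised by 1. Genes were those of the RefSeq table of GRCm38.p6 (20558 autosomal protein-coding genes), leaving out 107 entries with scaffold coordinates. Strands came from the RefSeq promoter table, which has 16457 of these genes. Distances run from the peak centre to the gene body. Exon and transcript positions were not used here. Of the sequences printed, the lncRNA promoters and miRNAs are from RefSeq (GRCm38.p6). On opposite strands, 1626 of 1626 overlapping promoter windows matched, as a check of their orientation.

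Shares have exact Clopper-Pearson intervals, densities exact Poisson intervals and differences Newcombe intervals (95%), all for counting error only. Shares of peaks were compared by two-sided Fisher's exact tests with Benjamini-Hochberg adjustment (SciPy 1.17.1), over 2 comparisons with all other peaks and, added after seeing the data, over 6 with single classes. The code was checked on simulated peaks. The peaks and the 15 gene lists were chosen with earlier results of these data known. Also added after the data were seen were the counts of list genes within 50 kb and the analyses by gene end, orientation, lncRNA, miRNA and T cell receptor segment. Named were the 15 highest scores, peaks flanked by T cell or Wnt list genes, gaps with 3 or more peaks, the 5 genes with most other peaks, peaks at the limits and the 5 widest. Alternatives were limits of 20 and 100 kb, a margin of 5 kb, all annotated genes, merged peaks, all chromosomes, peaks above the median score, and other score and width thresholds. The planned search for TCF/LEF words under all peaks needs a genome sequence and was not run. Some items under the naming rule are not reported here.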

Additional observations from a re-analysis of the deposited data

How the results depend on the processing

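Of 79 values recomputed under other settings, 67 kept their direction and side of the threshold (counts: within 1.5 times), 6 counts moved further, 2 differences changed sign, 1 no longer passed and 3 newly passed. With an outer limit of 20 kb there were 267 intergenic peaks and 496 flanking genes, and with peaks above the median score 142 and 262, as fewer peaks qualify. With peaks beyond 20 kb as far, the width difference from far peaks was 8.31 points (Fisher's exact test, adjusted p = 0.056). With all annotated genes in place of protein-coding ones, the score difference from all other peaks was -4.07 points (Fisher's exact test, adjusted p = 0.098) and that from gene-body peaks -3.03, both reversed, and that from gene-end peaks was -9.37 (0.0031). Width differences were then -7.61 points from all other peaks (0.0077) and -7.02 from gene-body peaks (0.017), all by Fisher's exact test, and T cell and Wnt list genes numbered 18 at any distance and 18 within 50 kb. The cause was not tested. No paired analysis was possible because a single peak list was made from 1 library of each genotype. For the same reason no library could be left out. The motif alternatives were not run. Read depth is unknown, so how depth limits the list is not known, and a gene without a peak is not shown to be unbound.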
